A study of Mus musculus with 10 samples.

Results

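The genes examined here encode the ATP-dependent chromatin remodellers of the SWI/SNF, ISWI, CHD and INO80 families, with the genes named for an AT-rich interaction domain (ARID). Members were taken by symbol: every gene beginning Smarca to Smarce, the Arid, Chd and Ino80 genes, and Bptf, Ep400, Srcap, Hells, Pbrm1, Brd7 and Brd9. Of 17945 named rows in the deposited table, 45 were members. The set was put together because Smarca2, Smarcad1 and Arid5a stood near the top of the comparison between the groups in earlier results of these data. The values of those 3 genes are therefore given as a description, with no test. The other 42 members entered by a rule on names, which was written with those earlier results known.

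The samples were pancreatic islets of C57BL/6 mice aged 18 weeks, in 10 libraries. Per the labels, 5 were floxed controls (Grk5 flox/flox) and 5 were knockouts that carried Pdx1-CreER together with the same Grk5 flox/flox alleles. Grk5 encodes a kinase that phosphorylates active G protein-coupled receptors, and the study's title ties it to growth in β-cell number by way of the histone deacetylase HDAC5. CreER is a Cre recombinase fused to a ligand-binding part of the estrogen receptor, and the Pdx1 promoter is active in β cells and in some other pancreatic cells. Only the knockouts were labelled as carrying the driver, so effects of the driver and of the Grk5 deletion cannot be told apart. In whole islets, fewer cells of a type and less RNA per cell cannot be told apart either.

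Chromatin remodellers use ATP to slide, evict or exchange nucleosomes. SWI/SNF complexes (BAF, PBAF and a smaller non-canonical form, ncBAF) are built around Smarca2 or Smarca4 and open enhancers and promoters, and in the pancreas they work with Pdx1 in development and in the control of insulin gene expression. ISWI remodellers space nucleosomes, CHD4 and its relatives form the NuRD complex with histone deacetylases, and INO80, SRCAP and EP400 exchange the histone variant H2A.Z. Most of the other Arid proteins bind DNA or RNA outside these complexes.

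The sequences upstream of the 3 genes that led to the set are shown because the groups' levels of these genes did not overlap. They were taken from RefSeq's promoter table (GRCm38.p6, plus strand, 5′ to 3′) and end at the first annotated start in RefSeq or GENCODE M21. Capitals mark matches on either strand to the GC box GGGCGG or to CCAAT. The windows are chr19:26604910-26605049 for Smarca2, chr6:65042341-65042582 for Smarcad1 and chr1:36307483-36307732 for Arid5a.
Smarca2: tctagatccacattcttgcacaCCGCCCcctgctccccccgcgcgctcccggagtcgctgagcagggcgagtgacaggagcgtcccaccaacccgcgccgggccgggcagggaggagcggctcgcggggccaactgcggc
Smarcad1: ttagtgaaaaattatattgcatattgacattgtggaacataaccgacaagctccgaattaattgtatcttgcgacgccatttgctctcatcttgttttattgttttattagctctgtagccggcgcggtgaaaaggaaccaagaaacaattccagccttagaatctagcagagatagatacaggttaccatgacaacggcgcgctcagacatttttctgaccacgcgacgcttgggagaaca
Arid5a: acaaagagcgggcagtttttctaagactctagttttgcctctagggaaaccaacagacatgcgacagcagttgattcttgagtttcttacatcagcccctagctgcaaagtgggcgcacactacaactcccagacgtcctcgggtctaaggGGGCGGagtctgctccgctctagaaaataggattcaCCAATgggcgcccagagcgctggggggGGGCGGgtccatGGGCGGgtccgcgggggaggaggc

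The Smarca2 window of 140 bases held 16 CG dinucleotides and was 73.6% G or C, against medians of 3 and 50.7% over windows of the same length and place in 32851 promoters. The Smarcad1 window held 13 CG in 242 bases (median 5) at only 42.1% G or C (median 52.1%). In the 250 bases of Arid5a there were 13 CG (median 6) at 58.0% G or C (median 52.4%). GGGCGG matched 1 time in the Smarca2 window and 3 times in that of Arid5a, and such a match was held by 15.3% and 32.7% of all windows of those lengths. CCAAT matched 1 time, in Arid5a, against 33.8% of all windows. The cAMP response element TGACGTCA, the ETS core CCGGAA and TATAAA were not matched in any of the 3 windows. These matches describe letters in a window and do not show that a factor binds there.

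Libraries differed in more than their group label. Estimated from the commonest low value, which is taken to stand for 1 read, totals ran from 2072860 reads in knockout 1 to 10951900 in knockout 3. These totals are rough, because only 22.6% to 33.6% of a library's values above 0 were whole multiples of that value. In controls 2, 3 and 5 between 9.001% and 11.2% of values lay midway between multiples of that value, against 1.22% to 1.44% in the other 7 libraries. Every library with the high share was a control. This difference therefore cannot be fully told apart from that between the groups, and its part was not tested. Grk5 itself did not separate the groups (127.9 to 387 normalized counts in controls, 94.4 to 269.8 in knockouts). Esr1, the estrogen receptor gene from which CreER is derived, was 1517 to 3177 in the knockouts. In controls 1, 3 and 4 it was at most 10.5, whereas control 2 had 2495 and control 5 had 773. These 2 controls thus resembled the knockouts in Esr1, and values without them are given below. The islet label fits the hormone genes: 6 of 6 β-cell markers were above 0 in every library, and Ins1 and Ins2 together held 12.3% to 17.8% of each. Mean levels in the knockouts were lower for all 6 β-cell, 2 of 2 δ-cell and 2 of 3 α-cell markers and for Ppy, while the summed level of each list overlapped between the groups.

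Of the markers of other cells, only the endothelial sum separated the groups. The summed level of 10 acinar markers was 18297 to 240951 in controls and 27061 to 75247 in knockouts, with control 2 the lowest and control 4 the highest library, and all 10 had a lower mean in the knockouts. The sum of 4 endothelial markers was 1342 to 1654 in controls and 1706 to 2249.7 in knockouts, with no overlap, and all 4 had a higher mean in the knockouts. The 4 ductal markers summed to 886 to 1236 in controls and 1018 to 2336 in knockouts, with 3 of 4 higher and with Krt19 and Sox9 listed at 0 in some libraries. The 4 immune markers in the table summed to 26.4 to 96.9 in controls and 26.2 to 672 in knockouts, where only knockout 4 exceeded 98.0, each of them listed at 0 in some library. Stromal markers summed to 169 to 310.03 and 161 to 229. The part of these cells in the results below was not tested, beyond a fit with the acinar level as a covariate.

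The catalytic subunits of SWI/SNF are Smarca2 (BRM) and Smarca4 (BRG1), paralogous ATPases of which each complex holds 1. Smarca2 (chromosome 19, 26605050 to 26778322, plus strand, GRCm38) had 1119.7, 1605, 1350.2, 1149 and 1006 normalized counts in the controls, in order of their numbers, and 1962, 2162, 1805, 1753 and 2255 in the knockouts. Every knockout lay above the highest control, which was control 2. The means were 1246 ± 236 and 1987 ± 218 (SD, n = 5 each), a ratio of 1.59 and a log2 fold change of 0.68 ± 0.18 (SE) on the log2(value + 8) scale used throughout. Without controls 2 and 5 the log2 fold change of Smarca2 was 0.71, and with the acinar level as a covariate it was 0.54. The endothelial marker sum was also higher in every knockout than in any control, and its part in the Smarca2 difference was not tested. Antisense genes are annotated within Smarca2. The library kit keeps strand, per the labels, but how the counting treated strand was not given in the sources used.

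Smarca4 (chromosome 9, 21616169 to 21704230) was among the steadiest members, at 1419, 1459, 1792, 1806 and 1554 in controls and 1118, 1773, 1518, 1809 and 1404 in knockouts. The groups overlapped, with knockouts 1 and 5 below every control and knockout 4 just above every one. The log2 fold change was -0.09 ± 0.18 (SE), with 95% limits of -0.47 to 0.29 and an adjusted p of 0.978 by limma, and its direction turned without knockout 1 (0.017). Per kb of principal transcript, Smarca2 made up 45.8%, 54.1%, 44.7%, 40.6% and 40.996% of the Smarca2 and Smarca4 sum in the controls. In the knockouts it made up 65.3%, 56.7%, 56.1%, 51.0% and 63.3%. Only knockout 4 lay below the highest control, which was control 2. Per kb of all annotated exon the share was 22.4% to 33.3% in controls and 30.5% to 44.3% in knockouts, below that of Smarca4 in every library. This share contains the gene chosen for its difference and is given without a test.

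**Figure D1:**
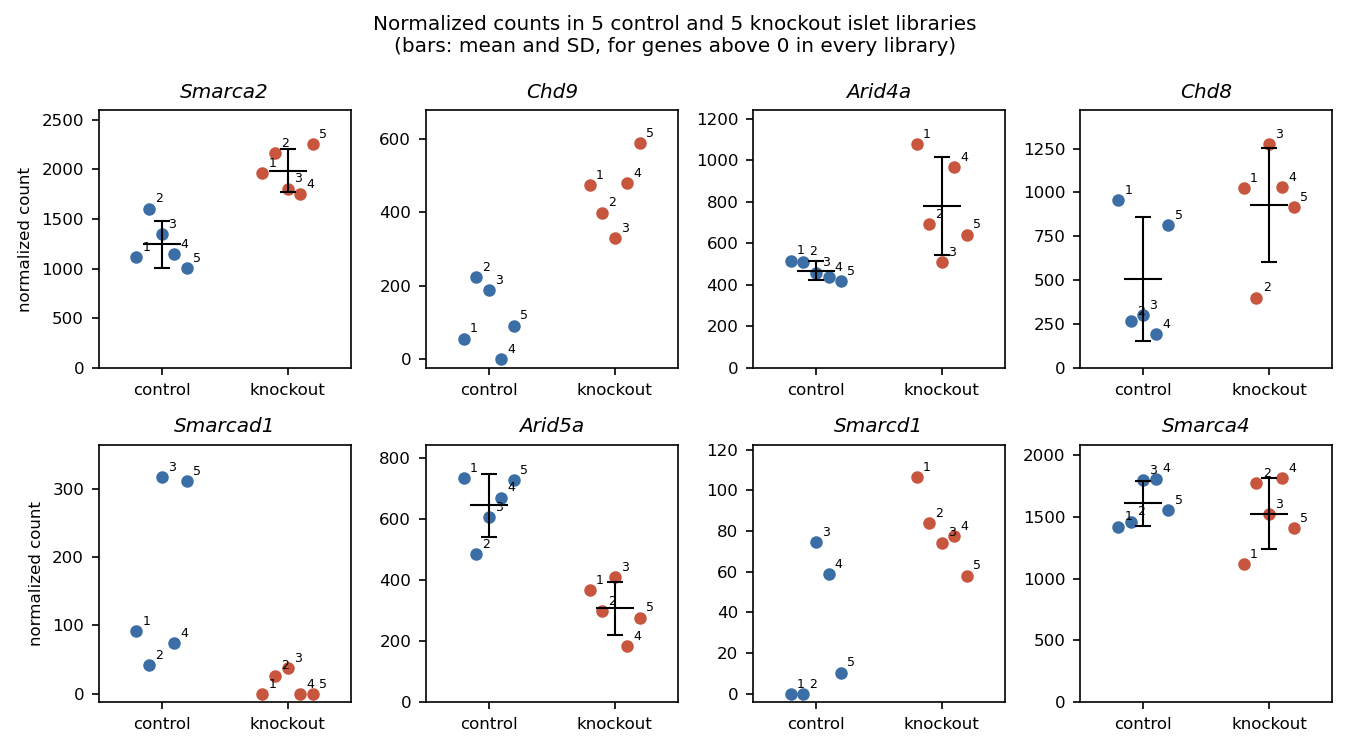
Normalized counts (vertical axis) of 8 remodeller genes in the 5 control (blue) and 5 knockout (red) libraries, numbered by replicate, with the mean and SD as black bars for genes above 0 in every library. Smarca2 and Chd9 were higher in every knockout than in any control and Smarcad1 and Arid5a lower, while for Smarca4 both groups lay between 1118 and 1809 and overlapped.

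The BAF core subunits hold the complex together around the ATPase. Smarcc2, a scaffold subunit (BAF170), had the highest mean level per kb of transcript and the smallest relative spread of all 41 tested members, at 1411, 1670.0, 1498, 1741 and 1596 in controls and 1156, 1667, 1572, 1716 and 1296 in knockouts. Its highest library was 1.51 times its lowest, and its log2 fold change was -0.11 ± 0.17 (SE; adjusted p of 0.971 by limma). Its paralog Smarcc1 (BAF155) was 44.7 to 476 across the 10 libraries, and Smarcc2 held 75.4% to 97.9% of their summed level per kb of transcript. Smarce1 (BAF57), which binds DNA through an HMG box, was 292 to 739 with overlapping groups.

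Smarcb1 (BAF47), a subunit that contacts the nucleosome, was 48.4 to 235 in controls and 115 to 432 in knockouts. Its log2 fold change was 0.81 ± 0.47 (SE; adjusted p of 0.942 by limma), and 0.46 without control 2, the lowest library. With the acinar covariate it was 1.28, and limma gave p-values of 0.0192 unadjusted and 0.9996 adjusted. Of the Smarcd paralogs (BAF60), alternative subunits that bridge to transcription factors, Smarcd1 had higher and Smarcd2 lower fitted values in the knockouts, both with overlapping groups. Smarcd1 was 0, 0, 74.4, 58.8 and 10.4 in controls and 106, 83.8, 74.4, 77.6 and 58.0 in knockouts. The low or absent values were thus all in controls 1, 2 and 5. Its fitted log2 fold change was 1.91 ± 0.75 (SE; unadjusted p of 0.0206 and adjusted p of 0.942 by limma). Without controls 2 and 5 it was 1.296, with an unadjusted p of 0.135, and with pseudocounts of 1 and 32 it was 3.18 and 1.07. Several genes, one of them protein-coding, are annotated on the opposite strand within Smarcd1. Smarcd2 was 121.6 to 229.8 in controls and 51.1 to 219 in knockouts, with a fitted difference of -0.73 ± 0.47 on the log2 scale (SE; adjusted p of 0.942 by limma). Smarcd3 was listed at 0 except in control 4 (27.9) and knockout 3 (47.1), and was not tested.

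Among the subunits that tell the complexes apart, Arid1a and Arid1b define canonical BAF. Arid1a was 1179, 1493, 1742, 1123 and 988 in controls and 1468, 1456, 1559.8, 1469 and 1273 in knockouts, so that the knockouts lay within the range of the controls. Its log2 fold change was 0.17 ± 0.19 (SE; adjusted p of 0.964 by limma). Arid1b varied more, from 138 in knockout 4 to 1147 in knockout 1, and Arid1a held 59.5% to 93.6% of the pair's level per kb of transcript. Of the PBAF subunits, Pbrm1, which reads acetylated histones through its bromodomains, was 1536, 1639, 1072, 639 and 975 in controls and 664, 778, 973, 789.7 and 896 in knockouts. Controls 1, 2, 3 and 5 lay above every knockout for Pbrm1, control 5 only just, and control 4 below every one. Its log2 fold change was -0.45 ± 0.25 (SE; adjusted p of 0.942 by limma), -0.68 with the acinar covariate (unadjusted p of 0.0227) and -0.28 without controls 2, 3 and 5. Arid2 (329 to 877) and the bromodomain gene Brd7 (125 to 269) overlapped between the groups. Brd9, which marks ncBAF, was listed at 215 in control 5 and at 0 in the other 9 libraries. It is a gene most cells use, so a 0 in this table may not mean that the transcript was absent.

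**Figure D2:**
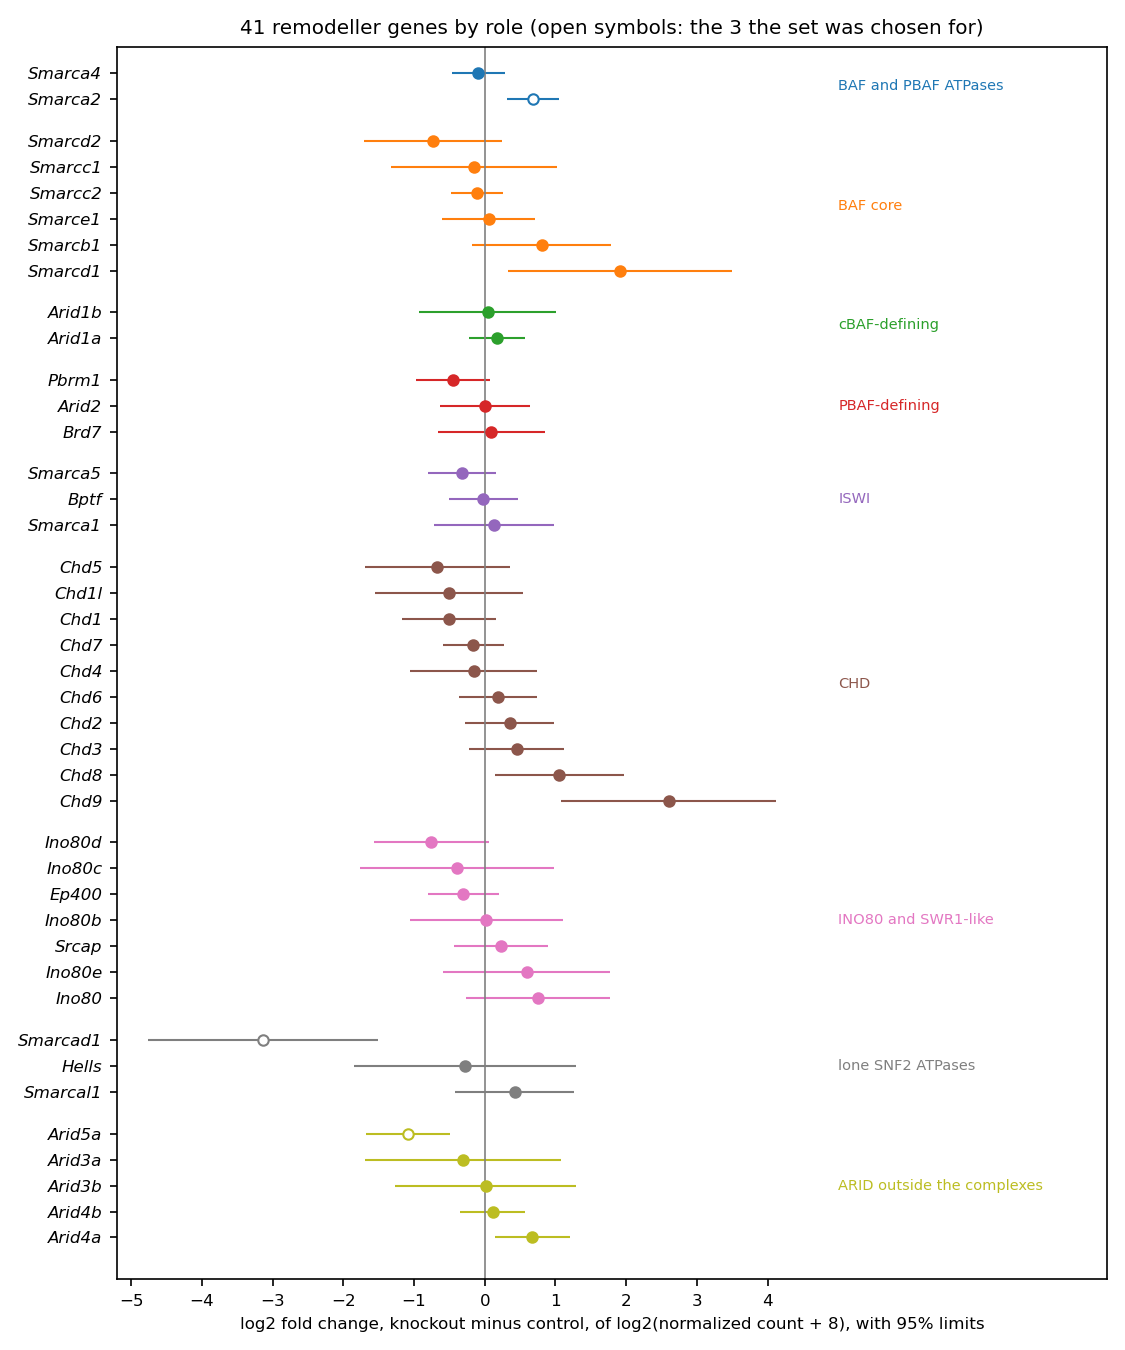
Log2 fold change, knockout minus control, with 95% limits (horizontal axis) of the 41 tested members, grouped and coloured by role. Open symbols mark the 3 genes the set was chosen for. The limits of those 3 genes are not a test, because the genes were picked for this difference. The 38 others had a median of 0.02 and ran from -0.75 for Ino80d to 2.60 for Chd9.

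The ISWI genes overlapped between the groups. Smarca5 (SNF2H), the main ISWI ATPase, was 984, 1006, 1523, 1418 and 877 in controls and 1156, 914, 1053, 634 and 860.3 in knockouts. Controls 3 and 4 were higher than any knockout, and knockout 4 was the lowest library. Its log2 fold change was -0.32 ± 0.23 (SE; adjusted p of 0.942 by limma), and -0.50 without controls 2 and 5. Smarca1 (SNF2L), its paralog, was 166 to 963, and control 5 was the only library where it exceeded Smarca5 per kb, with Smarca5 at 41.7% of the pair there against 59.1% to 82.3% elsewhere. Bptf, the large subunit of the NURF complex that reads methylated histone H3, was 1069 to 2983.

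The largest fitted value of the CHD family was that of Chd9 (chromosome 8, 90828352 to 91054516). Chd9, a large chromodomain helicase first described in bone cells, was 56.2, 225, 189, 0 and 91.5 in controls and 473, 399, 329.5, 478 and 589 in knockouts. All 5 knockouts were above the highest control, control 2. The fitted log2 fold change was 2.60 ± 0.71 (SE; unadjusted p of 0.00237 and adjusted p of 0.942 by limma). It was 1.79 without control 4, where Chd9 was listed at 0, 1.56 with the acinar covariate and 3.28 without controls 2 and 5. With pseudocounts of 1 and 32 it was 3.25 and 2.06. Without controls 2, 3 and 5, where only controls 1 (56.2) and 4 (0) remained, it was 4.32 with an adjusted p of 0.0675 by limma. Over all alternatives the adjusted p of Chd9 ran from that value to 0.9996. Genes are annotated on both strands within Chd9.

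Chd8, a helicase that restrains Wnt and p53 targets, was 954, 269, 299.7, 192 and 816 in controls and 1026, 401, 1276, 1032 and 915 in knockouts. Controls 1 and 5 lay among the knockouts, and knockout 2 lay between the low and the high controls. The log2 fold change was 1.05 ± 0.43 (SE; unadjusted p of 0.0266 and adjusted p of 0.942 by limma). Leaving out control 4 gave 0.78 and leaving out control 1 gave 1.35, and the unadjusted p was under 0.05 in 14 of 22 settings. Chd7, the CHARGE syndrome gene, was 1720.2 to 2517 in controls and 1322 to 2571 in knockouts, at -0.16 ± 0.21 (SE; adjusted p of 0.969 by limma).

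Chd4, Chd3 and Chd5 are the alternative ATPases of NuRD. Chd4 was 4049.5, 1388, 1995, 2345 and 1583 in controls and 1041, 2350.5, 1158, 4562 and 1871 in knockouts, with control 1 and knockout 4 far above the rest. Its direction (-0.16 ± 0.41, SE; adjusted p of 0.978 by limma) turned without control 1, knockout 1 or knockout 3. Chd3 was 505 to 1195 in controls and 629 to 2075 in knockouts. Chd5, the paralog best known from neural tissue, was 228, 212, 1426, 1132 and 258 in controls and 255, 265, 339, 284 and 296 in knockouts. Controls 3 and 4 stood apart, and the other 8 libraries were within 212 to 339. The log2 fold change of Chd5 was -0.67 ± 0.49 (SE; adjusted p of 0.943 by limma), -0.27 without control 3, -0.21 with the acinar covariate and -1.31 without controls 2 and 5, where the unadjusted p was 0.0165. Chd1, which binds methylated histone H3 at active genes, was 364 to 903 in controls and 208 to 574 in knockouts, at -0.50 ± 0.32 (SE; adjusted p of 0.942 by limma), -0.21 with the acinar covariate and -0.27 without knockout 1. Without controls 2 and 5 it was -0.80, and limma gave p-values of 0.0382 unadjusted and 0.998 adjusted. Chd2 (523 to 1755), Chd6 (557 to 1673) and the DNA repair remodeller Chd1l (47.4 to 173) overlapped between the groups.

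**Figure D3:**
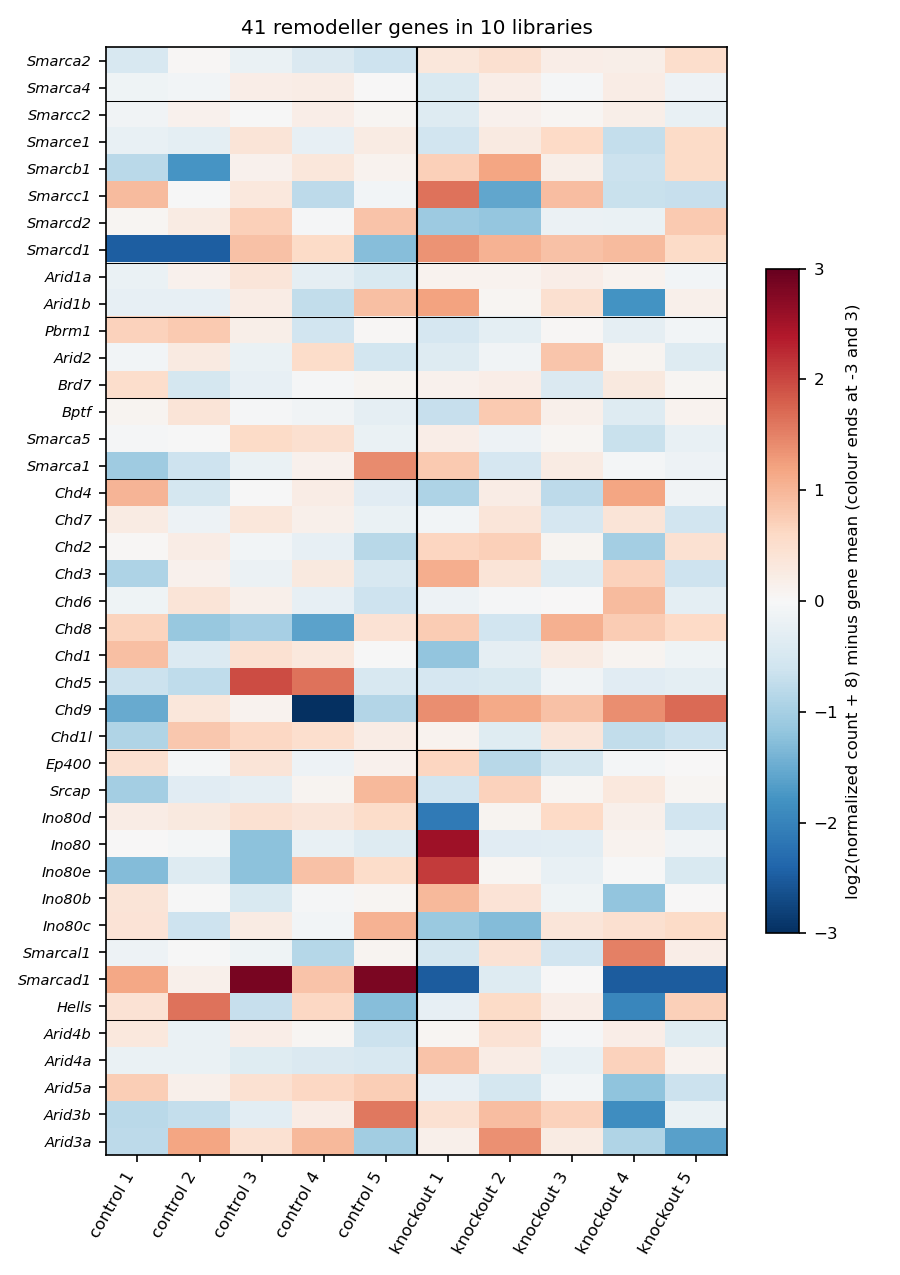
Each tested member (rows, grouped by role) in each library (columns) as its log2(normalized count + 8) minus the gene's mean, from blue (below) to red (above). Single libraries stand out in single genes, such as knockout 1 in Ino80 (1829) and Ino80e (629) and controls 3 and 4 in Chd5 (1426 and 1132).

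The groups overlapped for all 7 INO80 and SWR1-like genes. Knockout 1 was the extreme library of several, as it was for many genes. It held the highest value of 16.0% of all genes tested. Of the tested genes with a single lowest library, it was the lowest for 25.6%. Ino80, the ATPase, was 308, 295, 126, 261 and 234 in controls and 1829, 242, 246, 331 and 282 in knockouts. Outside knockout 1 no library exceeded 331. The log2 fold change of Ino80 was 0.76 ± 0.48 (SE; adjusted p of 0.942 by limma), and 0.21 without knockout 1. Ino80d, an accessory subunit, was 735, 774, 856, 806 and 916 in controls and 138, 658, 946, 692 and 419.7 in knockouts, again with knockout 1 the extreme. It was at -0.75 ± 0.39 (SE; adjusted p of 0.942 by limma), and -0.32 without knockout 1. Ino80e ran from 52.2 to 629, with knockout 1 the highest. Knockout 1 was also the shallowest library by the estimate above, and the part of depth in these values was not tested.

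Of the large ATPases that deposit H2A.Z, Ep400 was 2319, 1585, 2153, 1478 and 1795 in controls and 2597, 922, 1139.5, 1585 and 1674 in knockouts. The groups overlapped, with both the highest and the lowest value in the knockouts, and the log2 fold change was -0.31 ± 0.24 (SE; adjusted p of 0.955 by limma). Leaving out knockout 1 gave -0.51 and leaving out knockout 2 gave -0.13. Srcap was 620.2 to 2483 in controls and 848 to 2058 in knockouts. The small subunit genes Ino80b (34.7 to 181) and Ino80c (12.5 to 96.8) also overlapped.

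Smarcad1, Smarcal1 and Hells encode SNF2 ATPases that act without a large complex. Smarcad1, which helps to restore silent chromatin after replication and to resect broken DNA ends, lies on chromosome 6 from 65042583 to 65116061. It was 92.0, 42.3, 317, 73.5 and 311 in controls, and was listed at 0 in knockouts 1, 4 and 5, with 26.5 in knockout 2 and 37.4 in knockout 3. Its groups did not overlap, though control 2 (42.3) lay close to knockout 3. The fitted log2 fold change of -3.14 ± 0.78 (SE) depended on the pseudocount, at -4.95 with 1 and -1.95 with 32. Without controls 2 and 5 it was -3.19, and with the acinar covariate -2.59. The 3 zeros of Smarcad1 are not read as absence, which was not tested. Brd9 was also listed at 0, in libraries of both groups. The zeros of Smarcad1 were all in knockouts, but the gene was chosen for its difference, so their placing is a description only.

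Smarcal1, which restarts stalled replication forks, was 216, 240.2, 220.3, 129.8 and 255 in controls and 165, 331, 161, 696 and 278 in knockouts. Knockout 4 was far above the others. Its log2 fold change of 0.42 ± 0.40 (SE; adjusted p of 0.963 by limma) was 0.10 without knockout 4 and 0.71 without controls 2, 3 and 5. Hells, a remodeller needed for DNA methylation that is abundant in dividing cells, was low in every library, between 1.23 and 103.

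Among the Arid genes outside the complexes, Arid5a (chromosome 1, 36307733 to 36324029) had lower values in every knockout. Arid5a binds and stabilises messenger RNAs of inflammation such as that of interleukin 6. It was 734, 486, 606, 670.4 and 729 in controls and 368, 299, 409.8, 184 and 278 in knockouts, and the lowest control, control 2, lay above the highest knockout, knockout 3. The means were 645 ± 103 and 308 ± 87.3 (SD, n = 5 each), a control level 2.10 times that of the knockouts and a log2 fold change of -1.08 ± 0.28 (SE). Without controls 2 and 5 it was -1.15, and with the acinar covariate -0.91. The immune marker sum was at its highest in knockout 4 (672), the library where Arid5a was lowest, and without knockout 4 the log2 fold change was -0.91. No gene is annotated on the opposite strand within Arid5a or within Smarcad1.

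Arid4a, a partner of the retinoblastoma protein in histone deacetylase complexes, was 517, 512, 459, 439 and 419 in controls and 1078, 693, 509.5, 966 and 642 in knockouts. The controls lay within a narrow range, and all knockouts but knockout 3 were above it. The means were 469 ± 43.7 and 778 ± 236 (SD, n = 5 each), and the log2 fold change was 0.67 ± 0.25 (SE; adjusted p of 0.942 by limma). Its unadjusted p was 0.0162 by limma. With the acinar covariate the log2 fold change was 0.51, with an unadjusted p of 0.0919. Arid4b, its paralog, was 791 to 1544 in controls and 958 to 1680.2 in knockouts. The related DNA-binding genes Arid3a (18.8 to 205) and Arid3b (21.7 to 318) varied over 10-fold between their lowest and highest libraries, with overlapping groups. Arid5b was listed at 0 in all libraries but knockouts 3 (45.9) and 5 (79.1) and was not tested.

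Levels between genes can be compared only per length. Per kb of principal coding transcript, the mean over 10 libraries was highest for Smarcc2 at 338 ± 42.5, followed by Chd4 at 334 ± 177, Smarca2 at 273 ± 75.3, Smarca4 at 246 ± 36.1 and Arid4b at 216 ± 46.4 normalized counts per kb (SD, n = 10). Neighbours in this order did not differ beyond their SD. Of the tested members above 0 in every library, Hells at 6.20 ± 4.95 and Arid3a at 17.6 ± 12.3 normalized counts per kb were the lowest. The choice of length moves the order. Per kb of all annotated exon, Chd4 (279), Smarcc2 (276) and Smarca4 (242) led, and Smarca2 stood at 113, its annotated exons covering 14.3 kb against 5.92 kb for the principal transcript.

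**Figure D4:**
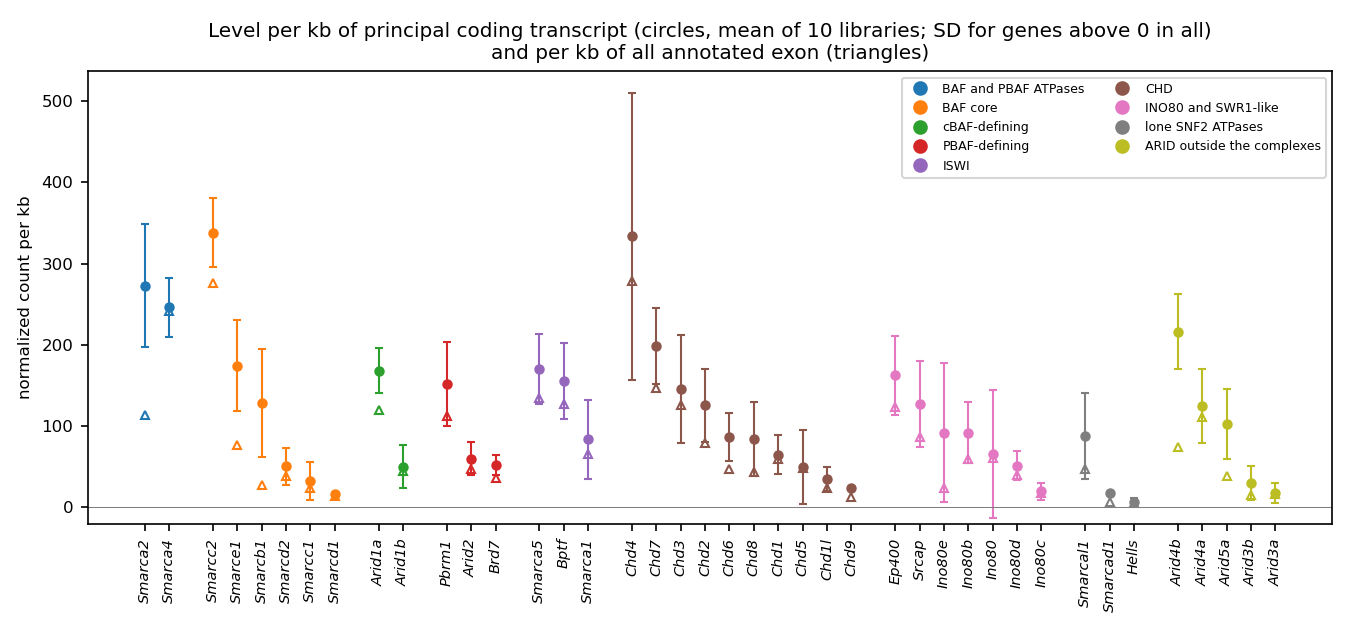
Level of each tested member, in normalized counts per kb (vertical axis), per kb of principal coding transcript (circles, mean of 10 libraries, with the SD for genes above 0 in all of them) and per kb of all annotated exon (triangles). Smarcc2, Chd4, Smarca2 and Smarca4 lead by transcript length, and Smarca2 stands at 273 by transcript and 113 by exon length.

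**Figure D5:**
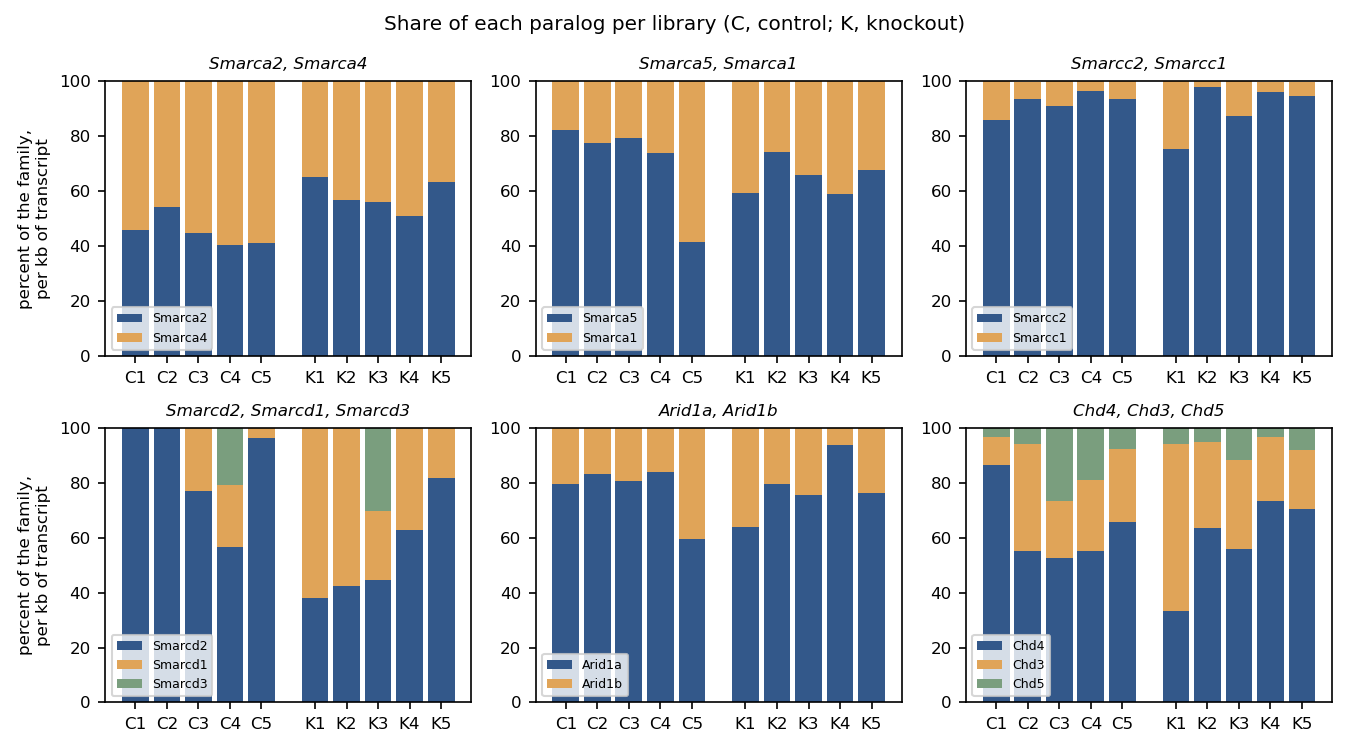
Share of each paralog in the summed level of its family (vertical axis, percent, per kb of principal transcript) in the 5 control (C) and 5 knockout (K) libraries. Smarcc2 and Arid1a outweighed their paralogs in every library, while Smarca2 ran from 40.6% to 65.3% of its pair (22.4% to 44.3% per kb of all exon).

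Of the 45 members, 41 passed the filter of at least 10 normalized counts in at least 5 libraries. Smarcad1 (7 libraries), Hells (8) and Smarcd1 (8) passed with the fewest, while Arid5b and Smarcd3 (2 each) and Brd9 and the pseudogene Smarca5-ps (1 each) did not pass. Smarca5-ps, a copy of Smarca5 with which reads may be shared, was listed at 11.9 in control 3 alone. Arid3c was not analysed here. The tested members had a median residual SD of 0.61 on the log2 scale against 0.84 over all 11711 genes tested, and a median mean level, not divided by length, of 8.95 against 6.91 on that scale. Their annotated exons were longer, with a median of 8.02 kb against 4.66 kb, and 38 of 41 were above 0 in every library (92.7% against 70.1%). These shares describe the members that passed the filter.

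No gene in the table passed an adjusted p of 0.05 by limma, members included (0 of 41, against 0% of all genes tested). Of the 38 tested members other than the 3 chosen for their difference, 21 had higher and 17 had lower fitted values in the knockouts, with a median log2 fold change of 0.02, against -0.03 over all genes tested. At an unadjusted p under 0.05 by limma there were 4 of these 38 (10.5%): Chd9, Arid4a, Smarcd1 and Chd8, all higher in the knockouts. Over all genes tested the share was 5.01%, with 2.36% higher and 2.66% lower in the knockouts. Without controls 2 and 5, 5 of the 38 were under 0.05 (13.2% against 4.19% of all genes in that fit). Without controls 2, 3 and 5 it was 1 of the 38, Chd9 (2.63% against 3.63%), and without control 2 alone 2 of the 38, Arid4a and Chd9 (5.26% against 5.10%). Groups that did not overlap were found for 1 of the 38, Chd9 (2.63%), against 0.862% of all genes tested. With all 3 chosen genes counted, 4 of 41 did not overlap. The authors' deposited table gives no member an adjusted p under 0.05 (0 of 42 with a value, against 0.136% of all rows). Its log2 fold changes were 0.67 for Smarca2, -3.65 for Smarcad1, -1.07 for Arid5a and 2.01 for Chd9. In the authors' test Arid4a and Chd9 also had an unadjusted p under 0.05, but Chd8 (0.0573) and Smarcd1 (0.204) did not. That test instead put Ino80, Chd5 and Arid5b, the last not tested here, under 0.05. Of these Chd5 was lower in the knockouts (-1.17). In all, 5 members other than the 3 chosen had an unadjusted p under 0.05 in the authors' test. The share of all rows at that threshold was not worked out for that test, so no background stands beside these 5.

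Partners of these complexes, other SNF2 ATPases and other ARID domain genes, listed by membership, gave values near those of all genes. Of these genes 66 were tested, 36 with higher and 30 with lower fitted values, and the median log2 fold change was 0.04. By limma the smallest adjusted p was 0.942, and 2 genes had an unadjusted p under 0.05 (3.03% against 5.01% of all genes). Rad54l, a recombination ATPase, was 33.9, 34.0, 39.5, 0.515 and 32.4 in controls and 35.3, 26.5, 446, 1193 and 108.6 in knockouts, so that 3 knockouts were high and 2 were at the control level. Trrap, the scaffold of the TIP60 complex, was 358, 396, 1457, 515 and 558 in controls and 569.9, 199, 435, 248 and 288 in knockouts. Control 3 stood far above all other libraries. With larger p-values, Gatad2a of NuRD (0.84 ± 0.43), the demethylase gene Kdm5b (0.53 ± 0.27), and Nfrkb (0.78 ± 0.43) and Epc1 (0.73 ± 0.42) of INO80 and TIP60 had higher values on the log2 scale (SE). Those with lower values were Zranb3 (-1.08 ± 0.68), Mbd2 (-0.27 ± 0.20), Cdk2ap1 (-1.27 ± 0.96) and Mcrs1 (-1.17 ± 0.92), of which all but Mbd2 were listed at 0 in at least 1 library. Among BAF partners 6 of 11 had higher values, among ISWI partners 6 of 10, among NuRD partners 4 of 9, and among INO80, SRCAP and TIP60 partners 10 of 22. All 4 other genes with an ARID domain (Kdm5a, Kdm5b, Kdm5c and Jarid2) had higher fitted values, between 0.07 and 0.53 on the log2 scale, and 0 of 4 reached an unadjusted p of 0.05 by limma.

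The extremes of the members were spread over the libraries. Lowest values were counted only for genes with a single lowest library, which were 39 of the members. Knockout 1 held the highest value of 9 of the 41 members (22.0%, against 16.0% of all genes tested). It held the lowest of 6 of 39 (15.4%, against 25.6% of all tested genes so counted). Knockout 4 held the lowest of 8 of 39 (20.5%, against 12.5%). Knockout 3, the library with the largest estimated total, was lowest for 0 of 39 (against 5.0%).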

How the data were processed

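The deposited table held, per gene, the authors' normalized counts (a signal on a common scale, not whole reads) for 5 control and 5 knockout libraries. It also held the authors' log2 fold changes with standard errors, test score, p-values and adjusted p-values. STAR 2.4.0.1, HTSeq and DESeq2 were used, in roles not specified, per the submitters' processing notes. Build, annotation and use of strand in counting are not given in the sources used here. Between 22.6% and 33.6% of values above 0 were whole multiples (tolerance 0.01) of a library's commonest low value, so no count model was run. One row of 17946 had no gene name (at most 0.0251% of a library) and was left out.

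Genes with at least 10 normalized counts in at least 5 libraries were compared as log2(value + 8) with limma 3.58.1 in R 4.3.3 (trend, robust, Benjamini-Hochberg over all 11711 genes, two-sided). The fit was tested on simulated data. Those were independent normal values on the log2 scale, without the depth differences between these libraries, so how the fit handles such differences was not tested. Positions and lengths are from GENCODE M21 (GRCm38). Members, lists and alternatives were chosen with earlier results of these data known. Every member is named. Values in all libraries are given for the 3 chosen genes and for members with an unadjusted limma p under 0.05 or no overlap. They are also given for the member of each role with the highest level per kb of all annotated exon. Some further members were described in full after their values were seen. Of the partner genes, 5 are named per direction, those of lowest p. The labels do not say whether libraries came from separate animals, so p-values reflect only how far these libraries vary, which may be technical. Members overlapped by an annotated gene on the opposite strand numbered 20.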

Additional observations from a re-analysis of the deposited data

Results flagged for a closer look

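In 6 of 82 groups of 5 libraries (41 members, controls and knockouts apart) 1 library lay far from the other 4, with a gap above 0.71 of the group's range. For normally distributed values chance does this in about 1 of 20 groups. The rule was applied to values not on the log2 scale, and whether these are normally distributed was not tested. Ino80 was 1829 and Ino80e 629 in knockout 1, Arid2 was 877 in knockout 3, and Chd6 was 1673 in knockout 4. Arid3b was 318 and Smarca1 963 in control 5. All 6 lay above the other libraries of their group.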

How the results depend on the processing

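Over 21 alternatives no member passed the adjusted threshold by limma. Counts over all genes at an adjusted p under 0.05 (0 as reported) were 1 without trend and robust estimation, 1 without controls 2 and 5, 3 without controls 2, 3 and 5, and 0 to 1 with single libraries left out (1 without control 1). At an unadjusted p under 0.05, all genes went from 587 to 376 and members from 7 to 3 without controls 2, 3 and 5, where 40 members were tested. These member counts include the 3 chosen genes. Without those, 4 as reported became 1 there and 2 to 6 in the other alternatives, where 3.45% to 5.65% of all genes were under 0.05. The partner genes at an unadjusted p under 0.05 (2 as reported) were 1 with total-count scaling, no filter, a pseudocount of 1, no trend, the acinar covariate or without controls 2, 3 and 5, 0 with a minimum of 50, and 1 to 5 with single libraries left out. The cause of these moves was not tested. Of 22 members with a reported fold change, 20 kept their direction in every alternative that could be fitted. With single libraries left out, Smarca4 ranged from -0.16 to 0.017 and turned without knockout 1. Chd4 ranged from -0.47 to 0.079 and turned without control 1 (0.079), knockout 1 (0.059) and knockout 3 (0.021). Over all 41 tested members 15 turned at least 1 time, none of them above 0.31 in size. Smarcad1 could not be fitted with a minimum of 50 or without controls 2, 3 and 5, where it failed the filter. The median of all genes moved between -0.08 and 0.02. No paired analysis was possible because the labels give no replicate numbers shared between the groups. What depth limits was not tested. Smarcd1 was listed at 0 in controls 1 and 2. The estimated totals of these libraries were 4712070 and 6065520 reads, and that of knockout 1 was 2072860.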
